A study of Mus musculus with 8 samples.

Results

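The nuclear-encoded subunits of the mitochondrial respiratory chain and the ATP synthase were followed in the epidermis of newborn mice that lack ZFP750. Members were chosen by name alone, as every listed gene whose symbol begins with Nduf, Sdh, Uqcr or Atp5, or with Cox followed by 4, 5, 6, 7 or 8. The rule found 90 genes among the 15995 in the table. By known roles 36 belong to complex I, 4 to complex II, 8 to complex III, 15 to complex IV and 15 to complex V. Ndufa4l2 was placed in complex IV only as a paralogue of Ndufa4. The remaining 12 are assembly factors or related proteins whose symbols share the prefix. There were 4 ZFP750-/- (knockout, KO) samples and 4 WT (wild-type) samples, all from newborn C57BL/6J mice. The epidermis had been peeled off after an overnight digestion with trypsin-EDTA in the cold, and total RNA depleted of ribosomal RNA was sequenced. The labels do not say which part of the gene was removed, whether animals were pooled, or whether samples of a genotype came from separate animals, so p-values measure only the spread between these samples.

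The respiratory chain passes electrons from NADH and succinate to oxygen. Complexes I and II take up the electrons, complex III hands them to cytochrome c, complex IV reduces oxygen, and the proton gradient built on the way drives complex V, the ATP synthase. Most subunits are encoded in the nucleus, a few core subunits of complexes I, III, IV and V in mitochondrial DNA, and assembly factors are needed to put them together. In skin, mitochondria of keratinocytes are known for their part in differentiation and in hair follicle growth. The subunits encoded in mitochondrial DNA are not analysed here.

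Respiratory chain transcripts differed between the genotypes in 5 of 89 tests. Ndufv3 (complex I), Sdhb (complex II), Uqcrc1 (complex III) and Cox5b (complex IV) rose in KO epidermis, and Ndufa4 (complex IV) fell. The other 84 members tested did not pass. The test was limma on log2(FPKM + 1), with FPKM being fragments per kilobase of transcript, scaled by the mapped fragments, and a call is a Benjamini-Hochberg adjusted p under 0.05 over all 11395 genes tested. The 5 calls are 5.62% of the tested members, whereas 15.7% of all genes tested were called, 6.72% higher and 8.94% lower in KO. The KO and WT values did not overlap for 7 of the 89 members (7.87%), against 21.3% of all genes tested. In tissue samples, fewer cells of a type and less RNA per cell cannot be told apart.

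The median fitted log2 change, KO minus WT, was 0.009 over the 89 members, with 49 above 0 and 40 below, and 0.007 over all genes tested. The quartiles were -0.09 and 0.16 for the members, against -0.24 and 0.25 for all genes. A change smaller than 0.5 was fitted for 85 members (95.5%) and for 77.5% of all genes. The 95% interval lay between -1 and 1 for 87 members (97.8%), against 75.9% of all genes, so a 2-fold difference was outside the interval for nearly every member. The median standard error (SE) was 0.14 for the members and 0.17 for all genes. Among the 8718 genes in the members' own range of levels, 16.1% were called and 77.7% changed by less than 0.5.

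**Figure D1:**
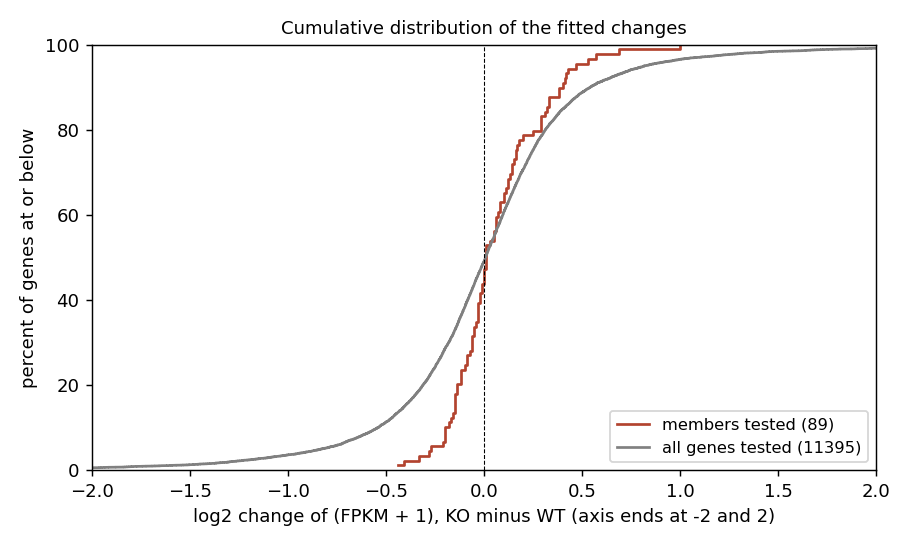
Cumulative share of genes, in percent, against the fitted log2 change of (FPKM + 1), KO minus WT, for the 89 tested members (red) and all 11395 genes tested (grey), with the axis ending at -2 and 2. Both curves cross 0 near the middle, and the members' curve is steeper, since 95.5% of the members and 77.5% of all genes lie within 0.5 of 0.

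The libraries were checked first. Zfp750 itself stood at 2.68, 2.31, 2.29 and 1.53 FPKM in KO libraries 1 to 4, against 119, 111, 81.6 and 93.7 FPKM in WT libraries 1 to 4. Summed markers of suprabasal keratinocytes (4 of 6 tested, 1 called higher) reached 11800 to 18000 FPKM in KO and 12600 to 15700 FPKM in WT. Krt1 and Krt10, which are on that list, were left out of the tests and of the sum. Those of basal keratinocytes (6 of 6 tested, 4 called higher) summed to 5740, 4040, 4810 and 2070 FPKM in KO, against 907, 1350, 2360 and 2880 FPKM in WT. Langerhans cell and myeloid markers (5 of 6 listed, 4 called lower) summed to 1.67 to 4.24 FPKM in KO and 13.6 to 34.5 FPKM in WT. Xist, which female cells transcribe, was at 126, 84.6, 150 and 1.84 FPKM in KO, against 0.0223, 0.0087, 118 and 0.00825 FPKM in WT. The markers' part in the results was not tested, apart from a fit with Xist as a covariate, whose values close the results.

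Most members deviated together in single libraries. WT library 3 had the lowest value of its 4 libraries for 66 of the 90 members, and KO library 4 for 49. The median log2(FPKM + 1) of the tested members was 5.949, 6.115, 6.178 and 5.989 in KO and 6.022, 6.152, 5.765 and 6.123 in WT. Striated muscle markers (7 of 8 listed) summed to 55.3 FPKM in WT library 3 and to 2.02 to 7.63 FPKM in the other 7 libraries, with Ckm and Tnnt3 at 0 in KO libraries 3 and 4. All members together took 1.49% to 1.76% of the summed FPKM in KO and 1.5% to 1.79% in WT.

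**Figure D2:**
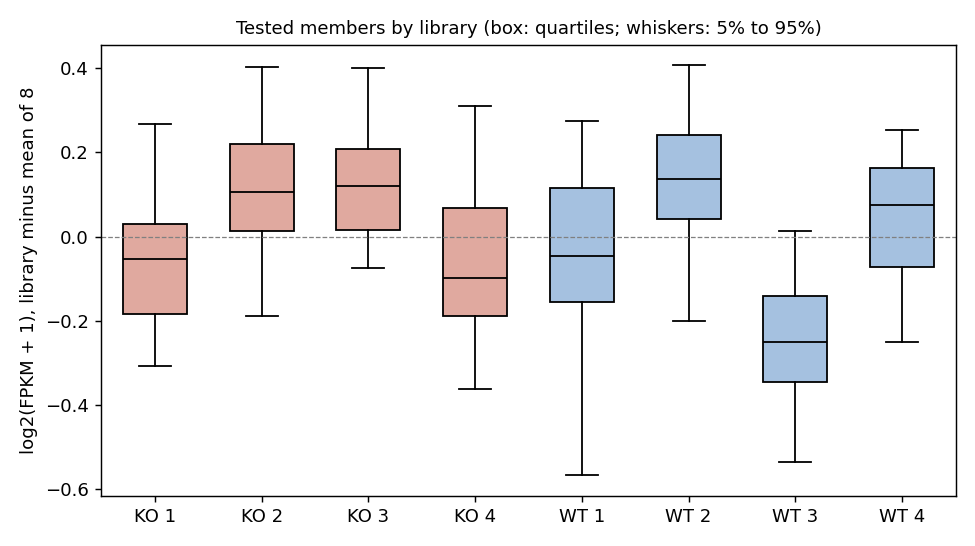
Deviation of each tested member from its own mean over the 8 libraries, on the log2(FPKM + 1) scale, by library, with boxes for the quartiles and whiskers from 5% to 95% of the 89 members. The box of WT 3, whose member median was 5.765, has the lowest middle line, and the boxes of the other KO and WT libraries overlap.

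The called members came from 4 complexes, and start regions of 4 of them are shown with the letters searched for in them. The sequences are those of RefSeq on GRCm38.p6, from 250 bases before to 50 after the gene's start, 5′ to 3′, for Ndufv3 with the largest change, for both called members that hold a searched motif, and for Ndufa4, the 1 member that fell. Capitals mark the core of the site of NRF1, a regulator of respiratory genes, read on either strand.
Ndufv3, chr17:31519865-31520164, plus strand: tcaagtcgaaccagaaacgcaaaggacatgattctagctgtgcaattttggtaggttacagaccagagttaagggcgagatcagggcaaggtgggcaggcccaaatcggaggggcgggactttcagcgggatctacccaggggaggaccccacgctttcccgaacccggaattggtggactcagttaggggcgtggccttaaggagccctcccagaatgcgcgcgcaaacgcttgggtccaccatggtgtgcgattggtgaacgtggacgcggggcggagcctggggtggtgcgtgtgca
Sdhb, chr4:140961021-140961320, plus strand: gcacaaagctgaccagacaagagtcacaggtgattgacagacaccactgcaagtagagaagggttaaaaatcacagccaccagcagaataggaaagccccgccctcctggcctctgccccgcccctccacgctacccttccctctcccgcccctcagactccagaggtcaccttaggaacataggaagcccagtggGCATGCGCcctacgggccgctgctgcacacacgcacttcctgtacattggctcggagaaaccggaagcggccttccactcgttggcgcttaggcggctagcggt
Uqcrc1, chr9:108936398-108936697, plus strand: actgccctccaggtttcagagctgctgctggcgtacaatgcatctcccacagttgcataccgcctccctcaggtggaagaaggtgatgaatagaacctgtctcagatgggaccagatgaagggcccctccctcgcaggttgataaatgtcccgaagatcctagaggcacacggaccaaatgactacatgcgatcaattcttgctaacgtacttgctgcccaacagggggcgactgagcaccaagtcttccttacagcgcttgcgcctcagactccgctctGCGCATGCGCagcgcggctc
Ndufa4, chr6:11907401-11907700, minus strand: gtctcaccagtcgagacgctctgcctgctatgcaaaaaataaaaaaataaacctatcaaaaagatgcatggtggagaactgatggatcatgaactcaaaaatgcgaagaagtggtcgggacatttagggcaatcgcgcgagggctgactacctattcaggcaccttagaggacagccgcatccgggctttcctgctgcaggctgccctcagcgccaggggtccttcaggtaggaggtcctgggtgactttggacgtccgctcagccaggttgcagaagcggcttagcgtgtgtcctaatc

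The NRF1 core GCGCATGC was found on either strand of 12 of the 76 members with a promoter entry (15.8%), against 3.05% of the 27025 genes of the promoter table. In Sdhb it begins 54 bases before the RefSeq start. In Uqcrc1 overlapping copies on both strands begin at bases 31 and 33, counted from the RefSeq start. GENCODE, the source of the gene positions below, starts Sdhb at 140961203 and Uqcrc1 at 108936633, upstream of the RefSeq starts. By the GENCODE start the Sdhb core lies inside the gene. Ndufv3, Ndufa4 and Cox5b had none of the letters searched. The YY1 core AAGATGGC was in 11 members (14.5%) and 3.19% of all genes, and the GABPA core CCGGAAGT in 5 members (6.58%) and 4.31% of all genes. Of the 12 members with the NRF1 core, Sdhb and Uqcrc1 were called and the other 10 did not pass. That share is near the 15.7% called among all genes tested, and a link between the core and the calls was not tested.

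**Figure D3:**
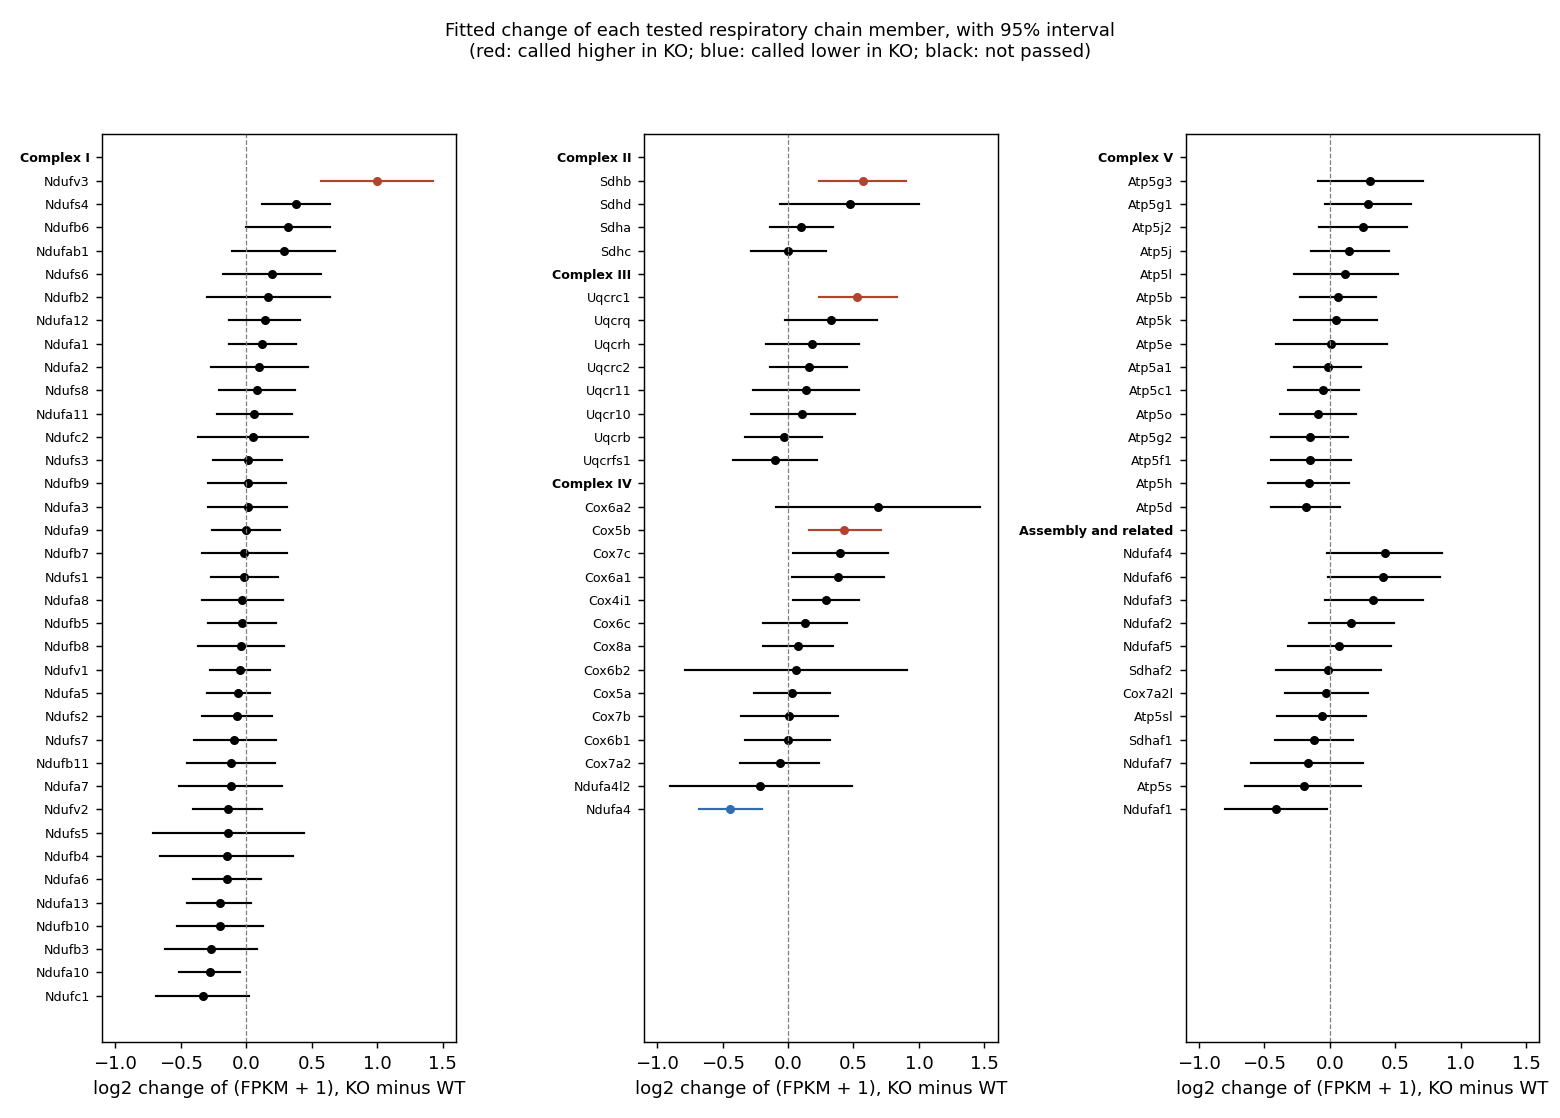
Fitted log2 change of (FPKM + 1), KO minus WT, with its 95% interval, for the 89 tested members, grouped by complex and ordered by size within each. Ndufv3, Sdhb, Uqcrc1 and Cox5b (red) lie to the right of 0, Ndufa4 (blue) lies to the left, and the other 84 members (black) did not pass.

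Complex I oxidises NADH, and its 36 members had a median log2 change of -0.023, with 16 above 0 and 20 below. Ndufv3, an accessory subunit beside the NADH-binding flavoprotein, was the only one called. Its level was 85, 110, 119 and 139 FPKM in KO, against 53.1, 66, 41 and 64.9 FPKM in WT. Every KO library was above every WT library. The means were 113 ± 22.3 FPKM in KO and 56.3 ± 11.7 FPKM in WT (SD, n = 4 each), and the fitted difference was 1.0 ± 0.19 on the log2(FPKM + 1) scale (SE; limma, Benjamini-Hochberg adjusted p = 0.00702). It was the largest fitted change among the 89 tested members, and Ndufv3 passed without each of the 8 libraries in turn (log2 0.86 to 1.13, adjusted p up to 0.0264). The gene lies on chromosome 17 (GRCm38, 31520115 to 31531331, plus strand) and has 3 coding transcripts of 493 to 1582 nucleotides, so its FPKM depends on the transcript length used, which neither the labels nor the table state.

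The partners of Ndufv3 in the NADH-oxidising module did not pass. Ndufv1, which binds NADH, had a log2 change of -0.05 ± 0.10, Ndufv2, an iron-sulfur subunit, of -0.14 ± 0.12, and Ndufs1, the large iron-sulfur subunit, of -0.02 ± 0.11. All 7 core subunits, which form the part that transfers electrons, lay between -0.14 and 0.08. Their 95% intervals all stayed within a 1.5-fold change.

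Of the accessory subunits, 2 others had no overlap between genotypes without passing the test. Ndufs4, needed to assemble the NADH-oxidising module, was at 20.8, 23.9, 24.2 and 23.6 FPKM in KO, against 17.5, 18.5, 14.9 and 19.4 FPKM in WT (log2 0.38 ± 0.12, limma adjusted p = 0.056). It passed with FPKM rescaled to an equal sum (log2 0.41, limma adjusted p = 0.0278) and with array weights (0.36, 0.0248). Ndufa10, a membrane arm subunit related to nucleoside kinases, was at 44.4, 46, 46.5 and 40 FPKM in KO, against 58.2, 52.5, 49.3 and 56.2 FPKM in WT (log2 -0.28 ± 0.10, limma adjusted p = 0.0965). Ndufs4 and Ndufa10 lay in opposite directions. The highest complex I level was that of Ndufb4, another membrane arm subunit, at 131, 130, 147 and 122 FPKM in KO and 181, 211, 94.5 and 128 FPKM in WT, with overlapping groups. Ndufb3, also of the membrane arm, passed without WT library 3 (log2 -0.42, limma adjusted p = 0.0465), and had -0.27 ± 0.16 with all 8 libraries.

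Of the remaining accessory subunits none passed, and the ends of their range were both in the membrane arm. Ndufc1 was at 57.9, 71.1, 69.7 and 52.6 FPKM in KO, against 85, 94.9, 60.9 and 78.6 FPKM in WT (log2 -0.33 ± 0.16, limma adjusted p = 0.206). Ndufb6 was at 51.1, 67.2, 55.2 and 47.7 FPKM in KO, against 41.6, 51.1, 36.9 and 46.2 FPKM in WT (log2 0.32 ± 0.14, limma adjusted p = 0.17). In both genes the genotypes overlapped. Ndufab1, the acyl carrier protein of mitochondria that is also part of complex I, had 0.29 ± 0.17. Ndufs5 varied within the KO samples, at 17.6, 24.9, 43.6 and 23.4 FPKM in KO and 38.7, 25.6, 28.3 and 24.1 FPKM in WT, and its interval of -0.71 to 0.44 was the widest of the accessory subunits.

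Complex II oxidises succinate and is also an enzyme of the tricarboxylic acid cycle. Sdhb, its iron-sulfur subunit, rose, with 48.6, 53, 52.2 and 39.9 FPKM in KO, against 26.2, 33.4, 30.6 and 39.4 FPKM in WT. The groups did not overlap, although KO library 4 and WT library 4 lay side by side. The means were 48.4 ± 5.97 FPKM in KO and 32.4 ± 5.51 FPKM in WT (SD, n = 4 each), and the fitted difference was 0.57 ± 0.15 on the log2(FPKM + 1) scale (SE; adjusted p = 0.0282 by limma). The call held without KO library 4 (log2 0.66) or WT library 4 (0.67) and was lost without any one of KO libraries 1 to 3 and WT libraries 1 to 3 (log2 0.48 to 0.59, adjusted p from 0.0623 to 0.0822). Sdhb lies on chromosome 4 (GRCm38, 140961203 to 140979193, plus strand).

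The other 3 subunits of complex II did not pass. Sdhd, a membrane anchor, was at 34.3, 37.2, 36.1 and 19.7 FPKM in KO, against 15.3, 22.8, 24.4 and 27.8 FPKM in WT. KO libraries 1 to 3 were above all WT libraries and KO library 4 was below 3 of them (log2 0.47 ± 0.24, limma adjusted p = 0.229). Without KO library 4 Sdhd passed, at 0.68 with an adjusted p of 0.0316. Sdha, the flavoprotein that oxidises succinate, changed by a fitted 0.10 ± 0.11 and Sdhc, the other anchor, by 0.00 ± 0.13, with 95% intervals of -0.14 to 0.34 and -0.28 to 0.29.

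Complex III passes electrons from ubiquinol to cytochrome c. Uqcrc1, a core protein that faces the matrix, rose, with 138, 148, 142 and 124 FPKM in KO, against 76.5, 99.5, 95.6 and 112 FPKM in WT. No KO value reached down to a WT value. The means were 138 ± 10.3 FPKM in KO and 96 ± 14.8 FPKM in WT (SD, n = 4 each), and the fitted difference was 0.53 ± 0.13 on the log2(FPKM + 1) scale (SE; adjusted p = 0.024 by limma). The call held without KO library 4 or WT library 3 or 4 and was lost without any one of the other 5 (log2 0.43 to 0.55, adjusted p from 0.0529 to 0.0706). Uqcrc1 lies on chromosome 9 (GRCm38, 108936633 to 108949623, plus strand).

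The remaining 7 subunits of complex III did not pass, and 5 of them had a fitted change above 0. Uqcrc2, the other core protein, changed by a fitted 0.16 ± 0.13, Uqcrq, a small subunit near cytochrome b, by 0.33 ± 0.16, and Uqcrfs1, the Rieske iron-sulfur protein, by -0.10 ± 0.14. Uqcrb, a small subunit with the highest level of the complex, averaged 214 FPKM over the 8 libraries and changed by a fitted -0.03 ± 0.13. The median log2 change over the 8 subunits was 0.145. It was -0.011 within the 4 samples that carry the code 44 in their titles, a code the labels do not explain. Complex III took 11.4%, 11.3%, 11.5% and 11.1% of the members' summed FPKM in KO, against 10.4%, 10.8%, 10.5% and 10.6% in WT. Complex I took 23.4%, 23.0%, 23.7% and 23.3% in KO, against 24.0%, 24.5%, 24.1% and 24.2% in WT. Neither share overlapped between genotypes, while those of complexes II, IV and V did, and no test was made of these shares. The share of complex III includes the called Uqcrc1, so its separation cannot be read as a trait of the whole complex.

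Complex IV reduces oxygen, and its members moved in both directions. Cox5b, a zinc-binding subunit on the matrix side, rose, with 202, 237, 220 and 215 FPKM in KO, against 155, 180, 133 and 180 FPKM in WT. The groups did not overlap. The means were 218 ± 14.5 FPKM in KO and 162 ± 22.5 FPKM in WT (SD, n = 4 each), and the fitted difference was 0.43 ± 0.12 on the log2(FPKM + 1) scale (SE; adjusted p = 0.0432 by limma). The call held only without WT library 4 (log2 0.49) and was lost without any one of the other 7 libraries (log2 0.35 to 0.49, adjusted p from 0.0542 to 0.118). Cox5b lies on chromosome 1 (GRCm38, 36691449 to 36693681, plus strand).

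Ndufa4, first isolated with complex I and later placed in complex IV, fell. It was at 162, 181, 168 and 190 FPKM in KO, against 257, 247, 237 and 210 FPKM in WT. All 4 KO values were under all 4 WT values. The means were 175 ± 12.5 FPKM in KO and 238 ± 20.5 FPKM in WT (SD, n = 4 each), and the fitted difference was -0.44 ± 0.11 on the log2(FPKM + 1) scale (SE; adjusted p = 0.0238 by limma). The call held without KO library 4 or WT library 3 or 4 and was lost without any one of the other 5 (log2 -0.46 to -0.40, adjusted p from 0.0532 to 0.0778). Ndufa4 lies on chromosome 6 (GRCm38, 11900292 to 11907497, minus strand). It has 3 other loci, and Cox5b has 1, whose transcripts match at 90% identity or more over at least 50% of the length, so reads could have been divided among the copies.

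**Figure D4:**
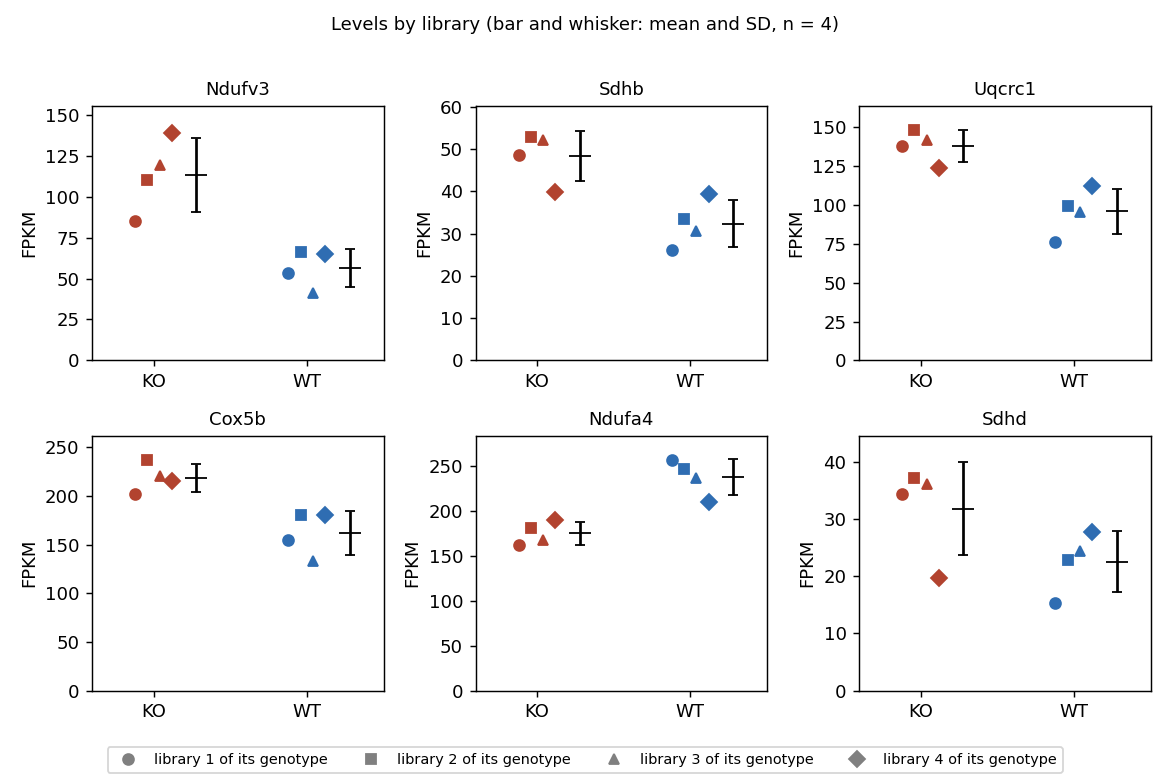
FPKM by library, from 0, for the 5 called members and Sdhd, with KO libraries in red left of WT libraries in blue, marker shapes for library numbers, and the mean with SD (n = 4) beside each group. The KO and WT points of Ndufv3, Sdhb, Uqcrc1, Cox5b and Ndufa4 do not overlap, and KO library 4 of Sdhd, at 19.7 FPKM, lies among the WT points.

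The other subunits of complex IV did not pass. Cox4i1, the largest nuclear subunit, changed by a fitted 0.29 ± 0.11 (limma adjusted p = 0.122), Cox7c, a small membrane subunit, by 0.40 ± 0.16 (0.132) and Cox6a1, the widespread form of subunit 6a, by 0.38 ± 0.15 (0.136). These 3 had intervals above 0 before adjustment, and their genotypes overlapped. Cox4i1 was at 235, 258, 244 and 208 FPKM in KO and 184, 213, 176 and 201 FPKM in WT. Cox7c was at 204, 266, 234 and 259 FPKM in KO and 236, 179, 145 and 177 FPKM in WT. WT library 1 was thus the 1 that lay among the KO libraries for Cox7c, and WT library 2 for Cox4i1. Cox6b1, with the highest level of the complex at a mean of 348 FPKM, changed by a fitted -0.00 ± 0.14, and Cox8a by 0.08 ± 0.12. Over the 14 tested members of complex IV the median log2 change was 0.070, with 10 above 0 and 4 below.

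Several subunits have a tissue-specific form or a paralogue, and 6 of 8 pairs set for comparison could be tested as the log2 ratio of (FPKM + 1) within each library. The added 1 shrinks the ratio where a gene is near 1 FPKM. Cox7a1, the heart and muscle form of subunit 7a, stayed under the 1 FPKM filter and was not part of the 89. It was at 0.984, 0.988, 0.676 and 0.591 FPKM in KO, against 0.228, 0.29, 0.49 and 0.231 FPKM in WT. All KO values were above all WT values, at levels far below those of Cox7a2, the widespread form, which averaged 125 FPKM. With no filter on low values limma called it higher (log2 0.46 ± 0.10, adjusted p = 0.0204 over 15991 genes). The log2 ratio of Cox7a1 to Cox7a2 differed by 0.53, KO minus WT (two-sided exact permutation p = 0.114, adjusted p = 0.343 over 6 pairs). With 0.1 added in place of 1 the difference was 1.23 (exact permutation p = 0.0286). It was 0.69, with 1 added, without WT library 3, where muscle markers were highest (exact permutation p = 0.0286). These p-values of the alternatives were not adjusted over the pairs.

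The other muscle form, Cox6a2, was at 0.68, 1.04, 2.5 and 3.97 FPKM in KO, against 1.03, 1.23, 0.574 and 0.237 FPKM in WT. KO libraries 3 and 4 were above all WT libraries and KO libraries 1 and 2 were among them (log2 0.69 ± 0.35, limma adjusted p = 0.231). Its ratio to Cox6a1 differed by 0.31 (exact permutation p = 0.4), and by 0.81 with 0.1 added in place of 1 (exact permutation p = 0.257). Cox6b2, the testis form of subunit 6b, averaged 1.97 FPKM, and its ratio to Cox6b1 differed by 0.06 (exact permutation p = 0.886), and by 0.12 with 0.1 added (exact permutation p = 0.857).

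Ndufa4l2, a paralogue of Ndufa4 that low oxygen is known to induce, was among the most abundant members. It stood at 211, 251, 362 and 331 FPKM in KO, against 394, 506, 174 and 328 FPKM in WT. The groups overlapped widely (log2 -0.21 ± 0.31, limma adjusted p = 0.711), and its ratio to Ndufa4 differed by 0.23 (exact permutation p = 0.629). The lowest of its 8 values was in WT library 3.

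Complex V makes ATP, and none of its 15 members passed. The fitted log2 changes ran from -0.18 for Atp5d, a subunit of the central stalk, to 0.31 for Atp5g3, with a median of 0.014, 8 above 0 and 7 below. Within the 4 samples of title code 44 alone the median was -0.144. The catalytic subunit Atp5b, the most abundant member of the complex with a mean of 350 FPKM, was at 372, 386, 365 and 307 FPKM in KO and 320, 359, 299 and 395 FPKM in WT. Its fitted change was 0.06 ± 0.13, and its partner Atp5a1 had -0.01 ± 0.11. The 95% interval stayed within a 1.5-fold change for 12 of the 15. Smallest in p were Atp5g1 (0.29 ± 0.15), Atp5g3 (0.31 ± 0.18) and Atp5j2, a membrane subunit (0.25 ± 0.15), with limma adjusted p of 0.237, 0.306 and 0.318.

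The stalks of the enzyme showed small fitted changes on both sides of 0. In the central stalk, Atp5c1 had -0.05 ± 0.12 and Atp5e 0.01 ± 0.19 beside Atp5d. In the peripheral stalk, which holds the catalytic head still, Atp5f1 had -0.15 ± 0.14, Atp5h -0.16 ± 0.14, Atp5j 0.15 ± 0.13 and Atp5o -0.09 ± 0.13. The genotypes overlapped for every one of these 7 subunits.

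Atp5g1, Atp5g2 and Atp5g3 encode the same mature c subunit of the rotor ring with different import peptides. The log2 ratio of Atp5g2 to Atp5g3 was 0.32, 0.46, 0.81 and 0.61 in KO, against 1.35, 0.83, 0.98 and 0.88 in WT. All KO ratios were below all WT ratios, by a difference of -0.46. The exact permutation p was 0.0286, the smallest that 70 assignments can give, and 0.171 after adjustment over the 6 pairs, which did not pass. The ratio of Atp5g1 to Atp5g3 differed by -0.02 (exact permutation p = 0.971). Atp5g1 and Atp5g2 have 4 copies each at 90% identity or more, and Atp5g3 has 0. Reads of 1 side of either ratio could thus have been divided among copies.

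Of the 12 assembly factors and related members none passed, and their median log2 change was -0.018. Their levels were low beside those of the subunits, with a median of 5.55 FPKM in KO and 5.54 FPKM in WT, against 48.8 and 50 FPKM for complex I. The complex I assembly factors with the smallest p lay on both sides of 0. Ndufaf1 had -0.41 ± 0.17, Ndufaf6 0.41 ± 0.19 and Ndufaf4 0.42 ± 0.20 (limma adjusted p = 0.149, 0.192 and 0.2). Cox7a2l, which helps join complexes III and IV into supercomplexes, was the most abundant at 126 FPKM and changed by a fitted -0.03 ± 0.14.

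Complexes IV and V had the most abundant transcripts per length. Median FPKM by complex was 48.8, 41.3, 120, 218 and 186 for complexes I to V in KO, against 50, 36.1, 88.9, 184 and 197 in WT. The median of complex IV thus stood above that of complex V in KO and under it in WT. It was the level of Cox5b, a called gene, in KO and of Cox7c in WT, so this order rests on single genes. The shares of complexes IV and V in the members' summed FPKM overlapped between genotypes. The most abundant members were Atp5b and Cox6b1, at 350 and 348 FPKM over all libraries, and the lowest subunit of complex I was Ndufa11 at 8.96 FPKM.

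Genes that work beside the chain were taken from lists chosen by name. Their counts stand beside 15.7% of all genes tested that were called, 6.72% higher and 8.94% lower in KO. Of 18 genes of the tricarboxylic acid cycle and pyruvate dehydrogenase 4 were called higher and none lower, with a median log2 change of 0.12. Mdh2, the malate dehydrogenase of mitochondria, was at 77.6, 77.8, 81 and 82 FPKM in KO, against 55.1, 59.4, 55.4 and 62.8 FPKM in WT (log2 0.45 ± 0.09, limma adjusted p = 0.0106). Dld, a shared subunit of the 2-oxo acid dehydrogenases, rose by 0.40 ± 0.09 (limma adjusted p = 0.0194). Dlst also rose, as did Suclg2, whose groups overlapped. Idh2 and Sucla2 had all KO values below all WT values without passing. Their fitted changes were -0.70 ± 0.24 and -0.22 ± 0.10 (limma adjusted p = 0.0824 and 0.178). Of 9 electron carriers and subunits with other names, Cycs, the carrier cytochrome c, rose (0.40 ± 0.11, limma adjusted p = 0.0373). Etfdh, which feeds electrons from fatty acid oxidation into ubiquinone, fell (-0.43 ± 0.12, limma adjusted p = 0.0328).

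Of 20 complex IV assembly genes 1 fell and none rose. It was Surf1, an assembly factor whose loss causes Leigh syndrome in humans, at 8.88, 9.38, 9.96 and 10.3 FPKM in KO, against 13.4, 14.3, 13.5 and 13.4 FPKM in WT (log2 -0.46 ± 0.11, limma adjusted p = 0.018). The groups stood well apart. None of 13 other assembly genes for complexes I, III and V passed, and none of 13 regulators of mitochondrial biogenesis. The tested regulators had a median log2 change of 0.16, and Ppargc1a and Ppargc1b, under the filter, were not tested. The regulators with the smallest p lay on both sides of 0. Ssbp1, which binds single-stranded mitochondrial DNA, had -0.30 ± 0.13 and Tfam, which packages mitochondrial DNA and starts its transcription, 0.34 ± 0.17. Of 21 import genes Timm9 rose (0.55 ± 0.15, limma adjusted p = 0.0363) and the other 20 did not pass, Timm23, a pore subunit of the inner membrane, having -0.33 ± 0.12.

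Glycolysis makes ATP outside mitochondria. Of 24 glycolysis and lactate genes 9 rose and 1 fell, with a median log2 change of 0.63. Slc16a1, a lactate transporter, was at 62.4, 69, 78.6 and 80 FPKM in KO, against 13.1, 22.2, 19.9 and 27.1 FPKM in WT (log2 1.81 ± 0.20, limma adjusted p = 3.26e-04). Hk2, a hexokinase, which carries out the first step of glycolysis, rose by 1.51 ± 0.15, while Hk1, another hexokinase, had a fitted change of -0.51. Of 13 hypoxia response genes 5 rose and 1 fell, with a median of 0.43, where Epas1, a subunit of hypoxia-inducible factor, fell (-1.04 ± 0.15) and P4ha1, a collagen prolyl hydroxylase subunit, rose (2.08 ± 0.37). Over all genes tested 6.72% were called higher and 8.94% lower. The lists were not tested against these shares or against the respiratory chain members.

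**Figure D5:**
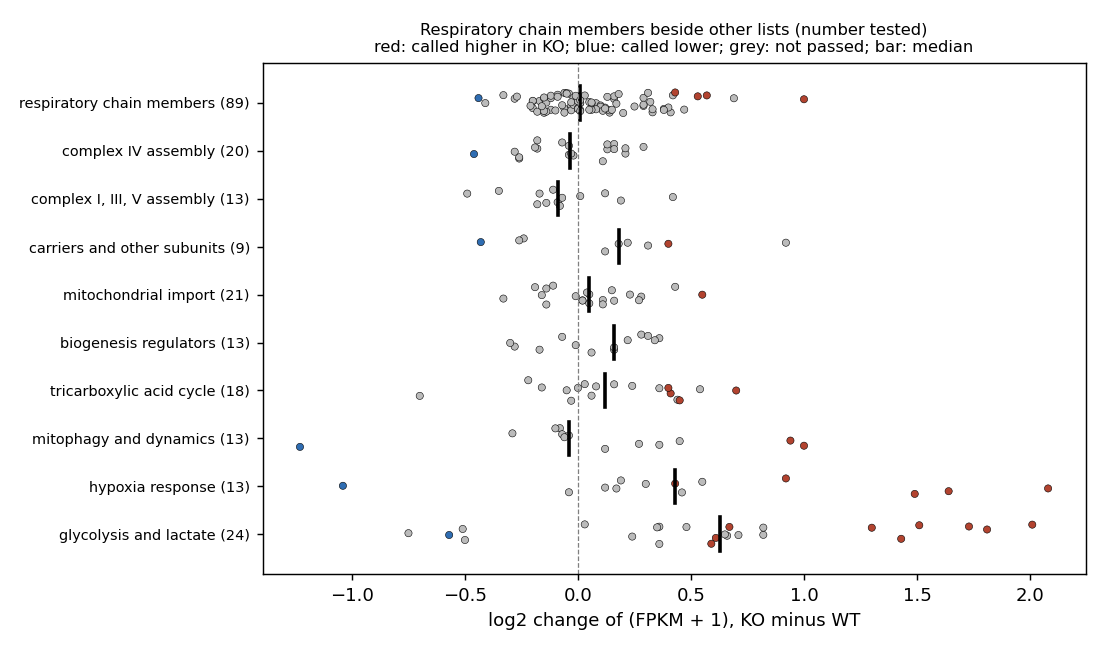
Fitted log2 change of (FPKM + 1), KO minus WT, of each tested gene in the respiratory chain and in 9 other lists, with called genes in red (higher in KO) and blue (lower in KO) and a bar at each median. The respiratory chain members gather around their median of 0.009, and the glycolysis list, with a median of 0.63, reaches furthest to the right beside the hypoxia list.

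The called members were also read within title codes and with Xist in the fit. The codes are 11, 14 and 44. Within codes 11, 14 and 44 the KO minus WT difference was 0.38, 1.40 and 1.11 for Ndufv3, 0.30, 0.77 and 0.61 for Sdhb, and 0.30, 0.63 and 0.60 for Uqcrc1. It was 0.16, 0.82 and 0.38 for Cox5b and -0.37, -0.39 and -0.50 for Ndufa4. Codes 11 and 14 hold 1 KO and 1 WT sample each, and since the groups of these 5 genes do not overlap, the sign within a code is fixed. With log2 Xist as a covariate, a choice made after the data were seen, Ndufv3 (1.30, limma adjusted p = 0.00161) and Cox5b (0.55, 0.0428) passed. Sdhb (0.51, 0.132), Uqcrc1 (0.48, 0.117) and Ndufa4 (-0.39, 0.118) did not.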

How the data were processed

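RNA sequencing of 8 epidermis samples, paired-end with reads of 75 bases, was analysed from 1 table of FPKM values deposited by the authors, 1 value per gene symbol and library. Per the submitters' processing notes, mm10 was the build, and neither labels nor file header name an aligner, a counting program or an annotation, or say whether strand was used. Missing values, found for 2029 genes and no member, were taken as 0. Krt1, Krt10, Flg2 and Rn45s, listed at 0 in some libraries and very high in others, were left out. Absolute depth is unknown. The steps between low values put the libraries' depths between 1.0 and 1.5 times that of KO library 1, and no counting interval is given.

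Genes at 1 FPKM or more in at least 4 of 8 libraries (3 of 7 and 2 of 4 in smaller fits) were tested with limma 3.58.1 in R 4.3.3 on log2(FPKM + 1), with a mean-variance trend and genotype as the only term. Changes on this scale are understated for low genes. Paralogue ratios used a two-sided exact permutation test over 70 assignments of all 8 libraries, and over fewer where a library was left out (scipy 1.17.1). Gene positions and copies are from GENCODE M21 (GRCm38, the same build as mm10), all 90 members matched, and copies were found with blastn 2.17.0. Opposite-strand genes overlap exons of 30 members, none of them called, and 26 members, with Ndufa4 and Cox5b among them, have a copy at 90% identity or more.

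Named genes were the called members, the 3 smallest p and the highest level per complex, the paralogue pairs, and, where given, up to 2 with the smallest p of each other list. Others named were ends of a range, called genes of a list, or chosen after their values were seen. Members and lists were chosen with earlier results of these data known. Alternatives were other pseudocounts, filters, scalings, weights, blocks and subsets of libraries.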

Additional observations from a re-analysis of the deposited data

Results flagged for a closer look

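Within the 4 libraries of a genotype, 1 value stood apart from the other 3 by Dixon's criterion in 8 of the 180 groups looked at (90 members, 2 genotypes). Chance gives about 1 in 20, or 9 groups. The low values were Ndufc2 at 40.5 FPKM in KO library 4 (next 64), Sdhd at 19.7 FPKM in KO library 4 (next 34.3) and Ndufa6 at 69.1 FPKM in WT library 3 (next 87.3). The high values were Ndufaf7 at 5.27 FPKM in KO library 3 (next 3.52), Uqcrb at 223 FPKM in KO library 3 (next 208) and Atp5d at 239 FPKM in KO library 2 (next 194). In WT library 4 they were Sdha at 45.3 FPKM (next 38.2) and Cox6b2 at 4.38 FPKM (next 1.38). None of these 8 members was called.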

How the results depend on the processing

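No result changed direction with a call under the 20 alternatives run. Ndufv3 passed in 19 of them, Uqcrc1 in 12, Ndufa4 in 11, Sdhb in 10 and Cox5b in 8. Leaving out each library in turn gave 1123 to 2326 called genes (474 to 1083 higher, 649 to 1243 lower in KO), 1 to 4 members higher, 0 to 2 members lower and a member median of -0.046 to 0.062. All genes went to the low end without WT library 1 and to the high end without KO library 4. Ratio differences then ran from -0.55 to -0.35 for Atp5g2 to Atp5g3, 0.44 to 0.69 for Cox7a1 to Cox7a2, 0.07 to 0.48 for Cox6a2 to Cox6a1, -0.28 to 0.43 for Cox6b2 to Cox6b1, -0.07 to 0.42 for Ndufa4l2 to Ndufa4 and -0.12 to 0.12 for Atp5g1 to Atp5g3. For Atp5g2 to Atp5g3 the exact permutation p was 0.0571 without KO library 1 or any one WT library.

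Centring libraries on their median left 3 members higher and 0 lower. Array weights called 3669 genes (1942 higher, 1727 lower) and 8 members higher and 3 lower, adding Ndufs4, Sdhd, Cox4i1 and Ndufaf4 (higher) and Ndufaf1 and Ndufb3 (lower). Code 44 alone gave 575 genes lower, 1 member higher and 0 lower, and codes 11 and 14 alone 0 and 0 members. A term for the number in the table's column names, added after the data were seen, left 2 members higher. Xist as a covariate left 1141 genes (465 higher, 676 lower), 2 members higher and 0 lower. A pseudocount of 0.1 gave 1.23 for Cox7a1 to Cox7a2 (exact permutation p = 0.0286, not adjusted over the pairs). The cause was not tested. With a replicate block by title code, 2261 genes were called and 6 members higher and 1 lower, adding Cox6a1 (adjusted p = 0.0497) and Cox6a2 (0.0361). Deviations from the group means correlated at 0.39, 0.24, -0.15, 0.43, 0.09 and 0.33 between KO and WT samples of 1 code, and at -0.43 to 0.20 between those of different codes. Not every pair of 1 code was above 0.1. Since the labels do not explain the code or say whether samples of 1 code belong together, the block entered only as an alternative. The median SE of 0.14 over the members limits what 4 libraries a genotype can show.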

Other observations

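Mitochondrial quality control genes formed a further list. Of 13 mitophagy and dynamics genes 2 rose and 1 fell in KO, with a median log2 change of -0.04. Over all genes tested 15.7% were called, and the list was not tested against that share. Pink1, a kinase that marks damaged mitochondria, was at 25.7, 28.3, 27 and 28.9 FPKM in KO, against 81.4, 59, 69.2 and 56.5 FPKM in WT (log2 -1.23 ± 0.13, limma adjusted p = 2.56e-04). Sqstm1, an autophagy receptor, was at 99.2, 107, 69.9 and 75.2 FPKM in KO, against 46.4, 42.6, 37 and 45.3 FPKM in WT (log2 1.0 ± 0.16, limma adjusted p = 0.00245). Optn, another receptor, rose by 0.94 ± 0.15 at a mean of 0.941 FPKM. The groups of Pink1, Sqstm1 and Optn did not overlap. Optn met the filter of 1 FPKM in 4 libraries only through the KO libraries, where it was higher. Its call and its lack of overlap therefore carry little weight.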
